A study of Homo sapiens with 4 samples.

Results

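Cyclins, cyclin-dependent kinases, their inhibitors and close partners were examined in cardiomyocyte cultures at day 14 of differentiation, made by way of A100/B5 cardiac progenitor cells (CPC) or of A100/B5 endothelial cells given XAV (ECsXAV). The members were taken by symbol from the deposited gene table: the cyclin (CCN), numbered CDK and lettered CDKN genes, without CDKN1A and CDKN1C, and the genes RB1, RBL1, RBL2, CKS1B, CKS2, WEE1 and PKMYT1. This gave 58 genes among the 23615 symbols of the table. No measured value entered the choice of symbols, but the gene group was proposed with earlier results of these libraries known.

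Poly-A RNA was sequenced from 2 cultures in each group, all grown from the human embryonic stem cell line RUES2. Induction used activin A at 100 ng/ml with BMP4 at 5 ng/ml. The CPC cultures followed the cardiac progenitor protocol. The ECsXAV cultures were moved to VEGF medium on day 2, which gave cells that the labels call anterior hemogenic endothelium, and were then treated with 2 µM XAV, which inhibits Wnt/β-catenin signaling, to direct them to the cardiac lineage. The methods add XAV in a subset of the cardiac protocols as well, and the labels do not say whether these CPC cultures were among them. The cells were not sorted, so each library holds every cell type of its culture, and fewer cells of a type cannot be told apart from less RNA per cell.

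Cyclins are regulatory subunits that switch on cyclin-dependent kinases and choose their substrates, and most of them are made and destroyed once per cell cycle. D cyclins with CDK4 or CDK6, and then E cyclins with CDK2, phosphorylate the retinoblastoma family and so release E2F factors at the entry to S phase, while A and B cyclins with CDK1 drive G2 and mitosis. Cardiomyocytes divide in the embryo and largely leave the cell cycle around birth, with falling levels of the mitotic cyclins and CDK1.

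Promoter sequence is shown for CDK1, CCNB1, CCNB2 and CCNA2, the kinase and the cyclins of G2 and mitosis on which the results turn. Many genes of this phase carry CCAAT boxes, bound by NF-Y, and a cell cycle genes homology region (CHR), to which the DREAM and MuvB complexes bind. RefSeq windows from 250 bases before to 50 after the start site were searched on both strands for CCAAT, for the CHR letters TTTGAA and for 3 E2F forms. These forms were spelled TTTCGCG for the first, with TTTGGCG as the second and with TTTCCCG as the third. The table held a window for 52 of the 58 members, and CCND1, CCND2, CCNE2, CDK2, WEE1 and PKMYT1 had no entry. Each of the 4 windows below, from the GRCh38.p14 table, matched GRCh37, the hg19 build of the files, at 1 place on its chromosome, and its coordinates are those of GRCh37. The window of CDK1 lies at chr10:62537839-62538138 on the plus strand, that of CCNB1 at chr5:68462727-68463026 on the plus strand, that of CCNB2 at chr15:59397095-59397394 on the plus strand and that of CCNA2 at chr4:122744989-122745288 on the minus strand. The first window listed for a gene was used. The sequences run 5′ to 3′ along the gene, and capitals mark the matches, none of which overlap.
CDK1: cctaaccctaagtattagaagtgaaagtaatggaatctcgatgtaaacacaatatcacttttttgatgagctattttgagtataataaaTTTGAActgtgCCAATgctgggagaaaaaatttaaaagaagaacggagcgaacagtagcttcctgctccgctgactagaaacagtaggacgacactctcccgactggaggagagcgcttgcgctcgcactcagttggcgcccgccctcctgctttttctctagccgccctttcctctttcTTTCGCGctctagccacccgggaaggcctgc
CCNB1: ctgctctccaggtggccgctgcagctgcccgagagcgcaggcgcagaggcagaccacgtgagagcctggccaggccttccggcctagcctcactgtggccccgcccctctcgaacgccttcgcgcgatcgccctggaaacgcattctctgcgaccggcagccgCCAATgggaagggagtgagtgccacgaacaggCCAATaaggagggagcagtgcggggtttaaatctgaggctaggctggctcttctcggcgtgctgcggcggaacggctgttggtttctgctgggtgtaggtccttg
CCNB2: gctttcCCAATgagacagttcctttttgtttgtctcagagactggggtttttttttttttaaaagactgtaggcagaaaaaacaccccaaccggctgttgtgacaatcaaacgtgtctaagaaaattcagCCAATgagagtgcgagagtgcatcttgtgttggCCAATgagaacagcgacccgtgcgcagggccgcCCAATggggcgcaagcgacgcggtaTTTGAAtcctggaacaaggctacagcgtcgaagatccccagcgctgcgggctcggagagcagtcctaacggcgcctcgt
CCNA2: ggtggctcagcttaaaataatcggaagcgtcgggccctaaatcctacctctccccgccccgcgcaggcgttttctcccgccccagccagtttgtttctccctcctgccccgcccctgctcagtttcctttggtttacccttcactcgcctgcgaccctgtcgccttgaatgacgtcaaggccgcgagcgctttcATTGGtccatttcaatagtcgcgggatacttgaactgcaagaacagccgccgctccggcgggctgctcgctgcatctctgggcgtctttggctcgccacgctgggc

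CCNB2 held 4 CCAAT boxes, starting 244, 120, 87 and 54 bases before the start site, and TTTGAA 29 bases before it. CCNB1 held 2 CCAAT boxes, 87 and 55 bases before the start, and CCNA2 held 1 on the opposite strand, which begins 56 bases before it. Counted from the RefSeq start, the box nearest the start thus lay at 54 to 56 bases in these 3 genes. The GENCODE coordinates given below begin at another base for CCNB1 and CCNB2, which changes these distances. How often other genes hold a box at this place was not counted. CDK1 held TTTGAA 161 and CCAAT 150 bases before the start, and the E2F form TTTCGCG 19 bases after it. Over all 35116 windows of the table, 34.6% held CCAAT, 15.2% held TTTGAA and 7.21% held an E2F form. In the first window of each of the 52 members, 22 held CCAAT (42.3%), 8 held TTTGAA (15.4%) and 8 held an E2F form (15.4%). Over the first windows of all 27305 genes these shares were 35.7%, 15.4% and 7.28%. CCAAT and TTTGAA stood together in 7 members (CDK1, CCNB2, CCNF, CCNC, CDK19, CKS1B and CKS2), or 13.5%, beside 6.08% of all genes. A match to these letters is a description of the sequence and does not show binding. Other spellings and sequence outside the windows were not searched, so a gene without TTTGAA here is not shown to lack a CHR.

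The deposited values are FPKM, in which fragments are scaled to the length of the gene and to the size of the library, so levels of different genes are compared here per length. Whole-read steps of weakly expressed genes gave depths of 50.1% to 86.9% of that of ECsXAV replicate 1 in the other 3 libraries, with the shallowest in ECsXAV replicate 2. Each log2 fold change is the CPC minus the ECsXAV mean of log2(FPKM + 1), so a negative value is higher in ECsXAV; where FPKM is low, adding 1 makes the change look smaller. The limma test covered the 12398 genes whose mean reached 1 FPKM. A gene passed the criterion with an adjusted p under 0.05 and a change of over 2-fold. An exact permutation test of 2 libraries against 2 cannot give a two-sided p below 0.333, and was therefore not used. The library names have a different prefix in each group, and the labels do not say what the prefix stands for.

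Of the 58 members, 48 reached the mean of 1 FPKM and were tested, and 4 of these passed the criterion. All 4, CDK1, CCNB2, CCND1 and CCNB1, fell in CPC relative to ECsXAV cardiomyocytes, where 1.44% of all tested genes passed in this direction. None of the 48 passed in the other direction (limma, adjusted p), with 1 at an unadjusted p under 0.05, and 0.71% of all tested genes did. An unadjusted p under 0.05 was reached by 11 members with higher levels in ECsXAV, against 10.4% of all tested genes, and by CDK9 alone with higher levels in CPC, against 7.86%. The FPKM of the 2 groups did not overlap for 21 members that were higher in ECsXAV and 6 that were higher in CPC, beside 25.4% and 24.4% of all tested genes. The median log2 fold change of the tested members was -0.07, and that of all tested genes was -0.00453. With any 1 of the 4 libraries left out, 0 members passed by limma, with 8 to 13 at an unadjusted p under 0.05, and without the filter on low FPKM 0 passed, with 14 at an unadjusted p under 0.05.

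**Figure D1:**
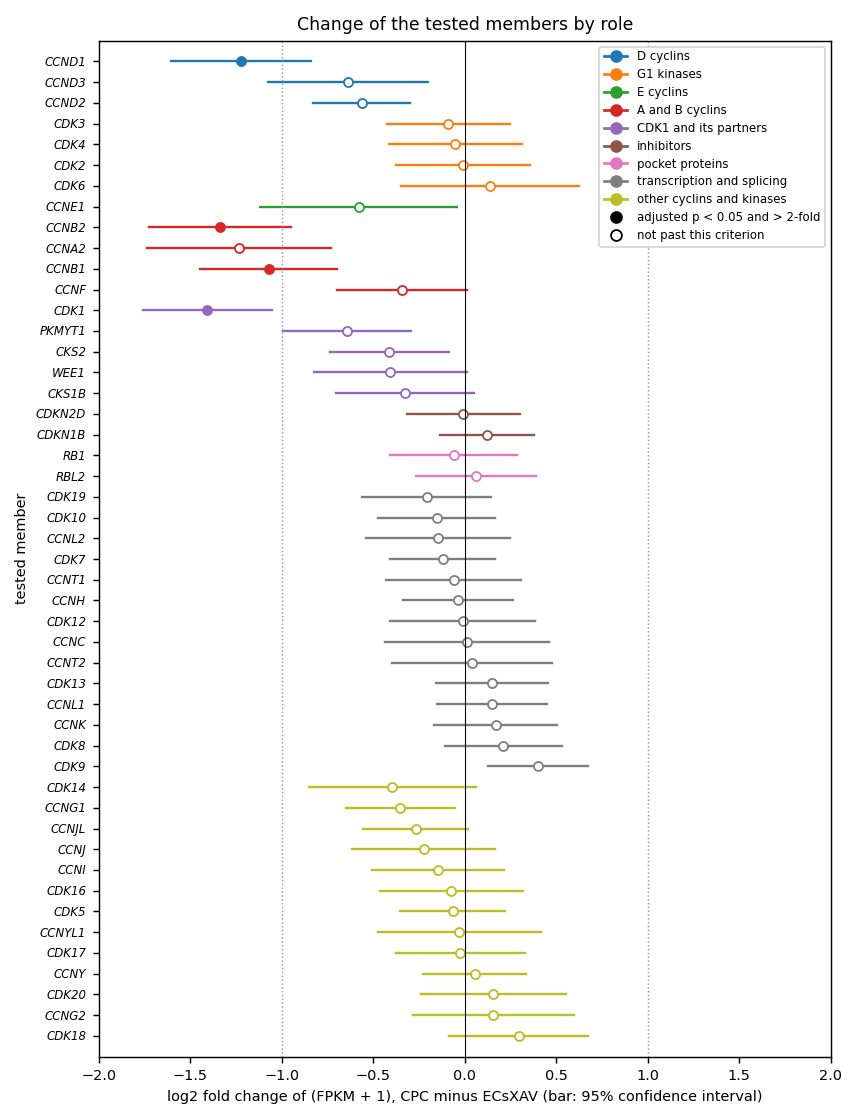
Log2 fold change of (FPKM + 1) for each of the 48 tested members, CPC minus ECsXAV, with its 95% confidence interval from limma, coloured by role; filled points passed the criterion and dotted lines mark 2-fold. CDK1, CCNB2, CCNB1 and CCND1 are the filled points, CCNA2 lies beyond 2-fold unfilled, and the numbered CDKs other than CDK1 lie between -0.40 and 0.40.

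Some genes used as markers of other cell types differed between the same groups. Of 11 fibroblast and smooth muscle markers, 8 were tested and 4 passed the criterion, all higher in ECsXAV. Of all tested genes, 1.44% passed in this direction. The summed level of the list was 388 and 393 FPKM in the ECsXAV libraries and 198 and 207 FPKM in the CPC libraries. TAGLN, a smooth muscle actin-binding protein, had 116 and 108 FPKM in ECsXAV and 15.8 and 22.6 FPKM in CPC, and the other called genes were the collagens COL1A1 and COL3A1 and the matrix protein LUM. The smooth muscle actin ACTA2 overlapped between the groups, at 80.5 and 57.5 FPKM against 74.2 and 78.5 FPKM, and the smooth muscle myosin MYH11, under the filter, was higher in CPC at 0.0844 and 0.154 FPKM against 0.351 and 0.433 FPKM. POSTN and PDGFRA, found in fibroblasts, did not pass, with log2 differences of 0.15 and 0.19. Of 9 endoderm and epithelium markers, 6 were tested and 3 passed, all higher in ECsXAV, with sums of 224 and 262 FPKM against 101 and 149 FPKM. Most of each sum came from KRT19, which did not pass, at 178 and 223 FPKM against 82.1 and 128 FPKM (limma adjusted p = 0.144). AFP, a hepatic and yolk sac protein of that list, had 11.4 and 9.70 FPKM against 0.199 and 0.124 FPKM. Of the 10 endothelial markers 3 were tested and 0 passed (limma, 0 at an unadjusted p under 0.05), and the list summed to 14.0 and 13.3 FPKM in ECsXAV and 15.2 and 11.9 FPKM in CPC, most of it from KDR at 7.06 to 10.8 FPKM. CDH5 was higher in ECsXAV, at 1.19 and 1.49 FPKM against 0.875 and 0.649 FPKM (log2 difference -0.41, limma adjusted p = 0.301), and TEK, ESAM and CD34, under the filter, were also higher in both ECsXAV libraries. In the other direction, EMCN had 0.73 and 0.96 FPKM in ECsXAV and 1.79 and 0.97 FPKM in CPC. Its log2 difference was 0.35 (limma adjusted p = 0.487). KDR overlapped between the groups, with a log2 difference of 0.20 (limma adjusted p = 0.652). TIE1 and ERG, under the filter, overlapped as well. The defining markers PECAM1 and VWF had at most 0.233 and 0.0209 FPKM in any library. Of the 6 blood markers 1 was tested and 0 passed (limma, 1 at an unadjusted p under 0.05), and PTPRC was at 0 in all 4 libraries, with sums of 3.0 and 5.12 FPKM against 0.533 and 0.207 FPKM. The 7 pluripotency markers, with NANOG at 0 in every library, summed to 8.74 and 6.04 FPKM against 4.54 and 3.43 FPKM, and the 5 skeletal muscle markers, with MYF5 and PAX7 at 0, to 0.443 and 0.725 FPKM against 0.915 and 0.60 FPKM; of the first list 2 were tested and 0 passed (limma, 1 at an unadjusted p under 0.05), and of the second 0 were tested. The 9 cardiomyocyte markers summed to 13661 to 14079 FPKM in ECsXAV and 12530 to 13187 FPKM in CPC, with 1 called in each direction. These were MYH7, with a log2 difference of -2.52, and MYH6, with one of 1.21. Most of each sum came from MYL7, which did not pass. Which cells of a culture expressed the markers was not tested, and neither was the part of other cell types in the levels of the cell cycle genes.

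D cyclins couple growth factor signals to the cell cycle. All 3 were higher in both ECsXAV libraries than in both CPC libraries, as were 25.4% of all tested genes. CCND1 (chr11:69455924-69469242 in GRCh37, from GENCODE) had 10.0 and 11.9 FPKM in the 2 ECsXAV libraries, against 3.73 and 4.53 FPKM in the 2 CPC libraries. The log2 difference was -1.22 with a standard error of 0.15 (limma adjusted p = 0.0327), and it was the 1 D cyclin past the criterion. Leaving out 1 library at a time gave -1.34 to -1.11 with adjusted p of 0.117 to 0.193 from limma. CCND2, the most abundant D cyclin in every library, had 33.1 and 34.7 FPKM in ECsXAV and 22.2 and 23.0 FPKM in CPC (log2 difference -0.56, limma adjusted p = 0.0704). CCND3 had 6.19 and 7.89 FPKM against 3.68 and 4.64 FPKM (log2 difference -0.64, limma adjusted p = 0.144).

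For CDK4 and CDK6, the kinases that the D cyclins activate, the groups overlapped. CDK4 had 32.3 and 37.6 FPKM in ECsXAV and 31.0 and 36.4 FPKM in CPC, and CDK6 had 11.9 and 10.2 FPKM in ECsXAV and 14.4 and 10.3 FPKM in CPC. The log2 fold change of CDK4 was -0.05 with a 95% confidence interval from -0.41 to 0.31, and that of CDK6 was 0.14 with one from -0.35 to 0.62, both within 2-fold in either direction. Both signs turned when single libraries were left out. The exons of CDK4 share 1369 bases with TSPAN31 on the opposite strand, which had 7.49 to 9.26 FPKM. The 3 D cyclins together came to 49.3 and 54.5 FPKM in the 2 ECsXAV libraries and to 29.6 and 32.2 FPKM in the 2 CPC libraries, while CDK4 and CDK6 together came to 44.1 and 47.8 FPKM against 45.5 and 46.7 FPKM. The ratio of the D cyclin sum to the CDK4 and CDK6 sum was thus 1.13 ± 0.0146 (SD, n = 2) in ECsXAV and 0.671 ± 0.0276 (SD, n = 2) in CPC, a difference larger than the spread between replicates. The share of CCND1 in the D cyclin sum was 21.1% ± 1.07 (SD, n = 2) against 13.3% ± 1.04 (SD, n = 2). For CCND2 it was 65.4% ± 2.44 (SD, n = 2) against 73.2% ± 2.42 (SD, n = 2), and for CCND3 it was 13.5% ± 1.36 (SD, n = 2) against 13.4% ± 1.38 (SD, n = 2). The shares of CCND1 and CCND2 differed by more than the replicate spread and that of CCND3 by less. Being parts of the same sum, the shares do not vary independently. The larger share of CCND2 in CPC went with a lower FPKM of CCND2 itself.

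**Figure D2:**
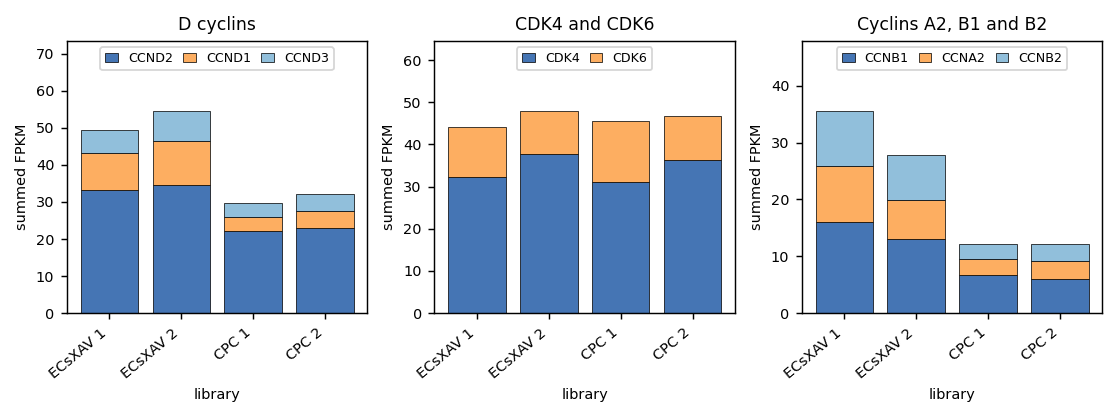
Stacked FPKM in each library for the D cyclins, for CDK4 and CDK6, and for the cyclins A2, B1 and B2. The D cyclins stack to 49.3 and 54.5 FPKM in ECsXAV and 29.6 and 32.2 FPKM in CPC, CDK4 with CDK6 stays between 44.1 and 47.8 FPKM in all libraries, and the cyclins A2, B1 and B2 stack to 35.5 and 27.8 FPKM against 12.1 and 12.2 FPKM.

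E cyclins act with CDK2 at the start of S phase. CCNE1 had 5.80 and 3.77 FPKM in ECsXAV and 3.04 and 2.60 FPKM in CPC (log2 difference -0.58, standard error 0.21, limma adjusted p = 0.244). The groups did not overlap, but the ECsXAV replicates lay farther apart than the lower of them lay from CPC. CCNE2 was under the filter, at 0.579 and 0.108 FPKM in ECsXAV and 0.617 and 0.317 FPKM in CPC, with the groups overlapping. Its exons share 1629 bases with INTS8 on the opposite strand, which had 6.95 to 7.91 FPKM. CDK2 had 12.5 and 14.2 FPKM against 12.0 and 14.6 FPKM, and the log2 difference was -0.00863 with a 95% confidence interval from -0.38 to 0.36. CDK3, a kinase linked to the exit from quiescence, had a log2 difference of -0.09 and overlapping groups, and of the 4 kinases of G1, 0 passed the criterion by limma and 0 had an unadjusted p under 0.05. The exons of CDK3 share 1695 bases with TEN1-CDK3 on the same strand, which had 0.433 to 1.55 FPKM.

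The A and B cyclins activate CDK2 and CDK1 from S phase to mitosis, and CCNB2, CCNA2 and CCNB1 were, with CCND1, the tested cyclins of more than 2-fold difference on the scale of FPKM + 1. CCNB2 (chr15:59397325-59417244) had 9.56 and 7.83 FPKM in the 2 ECsXAV libraries, against 2.59 and 3.07 FPKM in the 2 CPC libraries. The log2 difference was -1.34 with a standard error of 0.15 (limma adjusted p = 0.0286), with -1.47 to -1.21 when 1 library was left out and adjusted p of 0.105 to 0.170 from limma. CCNB1 (chr5:68462962-68474072) had 16.0 and 13.0 FPKM against 6.75 and 5.96 FPKM (log2 difference -1.07, standard error 0.14, limma adjusted p = 0.0404). Without 1 library its change ran from -1.21 to -0.93 with adjusted p of 0.142 to 0.262 from limma. CCNA2 (chr4:122737599-122745038) had 9.98 and 6.91 FPKM against 2.75 and 3.18 FPKM (log2 difference -1.23, standard error 0.19). It missed the criterion with an adjusted p of 0.0523 from limma, and passed with a pseudocount of 0.1 (adjusted p = 0.0392 from limma) and with short RNA genes and genes at 0 in one replicate beside at least 5 FPKM in the other left out of the test (adjusted p = 0.00265 from limma). The last setting leaves out genes whose replicates disagree, and it lowered the adjusted p of other members too. Under it 8 members had a limma adjusted p under 0.05, against 4 in the main test. For all 3 genes the higher CPC replicate lay below the lower ECsXAV replicate, as it did for 25.4% of all tested genes. The ECsXAV replicates of these 3 were farthest apart, relative to their level, in CCNA2.

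Of the other members of this group, CCNF, the F-box subunit of an SCF ubiquitin ligase, had 2.49 and 2.47 FPKM in ECsXAV and 1.89 and 1.61 FPKM in CPC (log2 difference -0.34, limma adjusted p = 0.289). CCNA1 and CCNB3, known from the germline, were under the filter. CCNA1 had 0.282 and 0.385 FPKM in ECsXAV and 0.0317 and 0.0345 FPKM in CPC, and CCNB3 had 0.105 and 0.0908 FPKM against 0.181 and 0.510 FPKM, so that the groups were apart in opposite directions.

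CDK1, the kinase that triggers mitosis, had the largest change of all tested members. At chr10:62538089-62554610, it had 12.4 and 10.3 FPKM in the 2 ECsXAV libraries, against 3.81 and 3.49 FPKM in the 2 CPC libraries. The log2 difference was -1.41 with a standard error of 0.14 (limma adjusted p = 0.0208), 2.65-fold higher in ECsXAV on the scale of FPKM + 1. Without 1 library the change ran from -1.53 to -1.28 with adjusted p of 0.0916 to 0.144 from limma. The summed level of cyclins A2, B1 and B2 per unit of CDK1 was 2.78 ± 0.116 (SD, n = 2) in ECsXAV and 3.34 ± 0.229 (SD, n = 2) in CPC, a difference larger than the spread between replicates. It came mainly from CCNB1, the largest part of the sum, whose ECsXAV mean was 2.28 times its CPC mean. That ratio was 3.11 for CDK1, 3.07 for CCNB2 and 2.84 for CCNA2. Taken per unit of CDK1, CCNB2 and CCNA2 each overlapped between the groups. No other gene of the table had exons overlapping those of CDK1, CCNB1, CCNB2 or CCND1 in GENCODE, whereas 254 exon bases of CCNA2 are shared with EXOSC9 on the opposite strand, which had 10.5 to 12.4 FPKM in the 4 libraries.

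The partners of CDK1 were all higher in both ECsXAV libraries, as were 25.4% of all tested genes. Of these 4 partners 0 passed the criterion by limma, with CKS2 and PKMYT1 at an unadjusted p under 0.05. CKS2, a small subunit that binds CDK1, had 21.4 and 18.2 FPKM in ECsXAV and 14.1 and 15.0 FPKM in CPC (log2 difference -0.41, limma adjusted p = 0.181). Its paralog CKS1B, which also acts in the destruction of CDKN1B, had 3.89 and 4.25 FPKM against 2.71 and 3.41 FPKM (log2 difference -0.33, limma adjusted p = 0.331). WEE1 and PKMYT1 are the kinases that hold CDK1 inactive by phosphorylation. WEE1 had 21.4 and 18.4 FPKM against 16.7 and 13.0 FPKM (log2 difference -0.41, limma adjusted p = 0.287). PKMYT1 had 2.34 and 2.41 FPKM against 1.12 and 1.20 FPKM (log2 difference -0.64, standard error 0.14, limma adjusted p = 0.0928). The exons of PKMYT1 share 357 bases with KREMEN2 and 1228 bases with PAQR4 on the opposite strand, and both of these neighbours also had higher FPKM in ECsXAV, at 1.58 and 1.78 against 0.441 and 0.397 FPKM for KREMEN2 and 1.46 and 1.99 against 0.452 and 1.11 FPKM for PAQR4. Whether the FPKM used strand is not given in the sources used here, so their reads may not be separable. The exons of CDK2, CDK14, RBL2, CCNC, CCNH and CCNYL1 also overlap those of another gene.

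**Figure D3:**
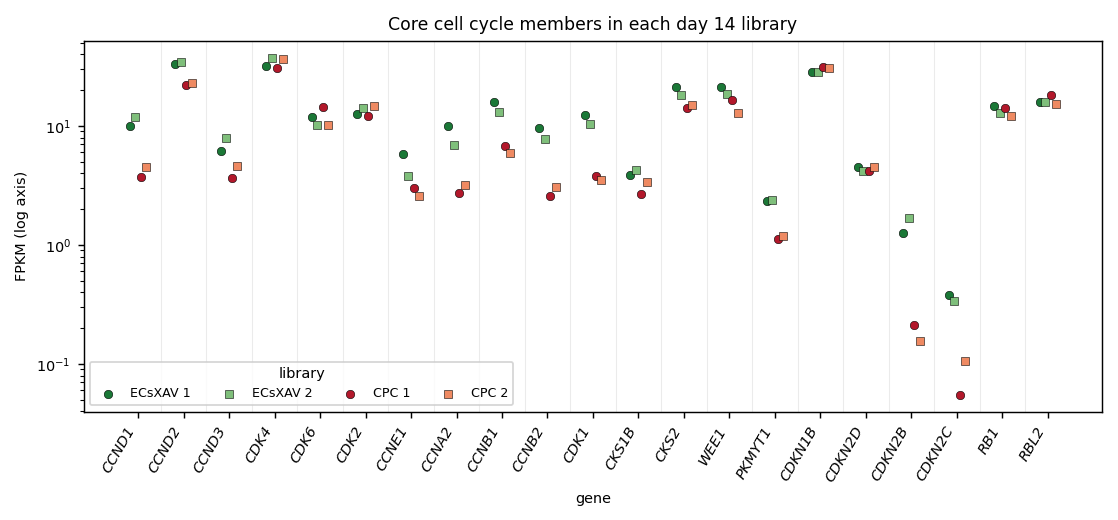
FPKM on a log axis for 21 core members in each of the 4 libraries (green, ECsXAV replicates 1 and 2; red, CPC replicates 1 and 2). CDK1 has 12.4 and 10.3 FPKM in ECsXAV and 3.81 and 3.49 FPKM in CPC, whereas CDK4, CDK6, CDK2, CDKN2D, RB1 and RBL2 overlap between the groups.

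Of the 5 inhibitors 2 were tested, CDKN1B and CDKN2D, and neither passed the criterion (0 at an unadjusted p under 0.05 by limma). CDKN1B (p27), which binds cyclin E with CDK2, had 28.4 and 28.3 FPKM in ECsXAV and 31.1 and 30.6 FPKM in CPC, and the log2 difference was 0.12 with a 95% confidence interval from -0.14 to 0.38. CDKN2D (p19), an inhibitor of CDK4 and CDK6, had 4.55 and 4.20 FPKM against 4.19 and 4.50 FPKM with overlapping groups. CDKN2B (p15), an inhibitor of CDK4 and CDK6 that TGF-beta induces, had 1.26 and 1.68 FPKM in ECsXAV and 0.213 and 0.155 FPKM in CPC. Its mean of 0.826 FPKM put it under the filter, its ECsXAV mean was 7.97 times the CPC mean, and without the filter its adjusted p was 0.0735 from limma. CDKN2C (p18) had 0.38 and 0.339 FPKM against 0.0552 and 0.106 FPKM, and an adjusted p of 0.084 from limma without the filter. CDKN2A was listed at 0.0951 and 0.190 FPKM in ECsXAV and at 0 and 0.0596 FPKM in CPC, which at the relative depths stood for reads in the ratio of 2, 2, 0 and 1, the smallest whole numbers that gave them within 5%. Nearly all of this was assigned to NM_058195, the transcript of p14ARF, and the p16 transcript NM_000077 was listed at 0 in every library. A difference in CDKN2A was not detectable at this depth, and 593 of its exon bases are shared with the antisense gene CDKN2B-AS1. The 4 CDKN2 genes together came to 6.28 and 6.41 FPKM in ECsXAV and 4.46 and 4.82 FPKM in CPC.

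Pocket proteins hold E2F factors inactive until cyclin-dependent kinases phosphorylate them. RB1 had 14.6 and 12.9 FPKM in ECsXAV and 14.3 and 12.1 FPKM in CPC, and the log2 difference was -0.06 with a 95% confidence interval from -0.41 to 0.29. RBL2 (p130), the form of quiescent cells, had 15.9 and 16.0 FPKM against 18.2 and 15.2 FPKM, and the log2 difference was 0.06 with one from -0.27 to 0.39. The groups overlapped for both genes. RBL1 (p107), the form of cycling cells, was scarce at 0.491 and 0.565 FPKM against 0.462 and 0.316 FPKM and was not tested.

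Of the 14 members that act in transcription and splicing, all were tested, 0 passed the criterion by limma with 1 at an unadjusted p under 0.05, and all 14 had 95% confidence intervals within 2-fold in either direction. CDK9, the kinase of the elongation factor P-TEFb, had the largest change toward CPC of all tested members, with 18.2 and 19.7 FPKM in ECsXAV and 25.5 and 25.2 FPKM in CPC. The log2 difference was 0.40 with a standard error of 0.11 (limma adjusted p = 0.141), and the groups did not overlap. A microRNA, MIR3960, lies within its exons and was listed at 41.4 FPKM in ECsXAV replicate 2 and at 0 in the other libraries. CCNT1, the cyclin of CDK9, had 6.29 and 6.27 FPKM against 6.72 and 5.30 FPKM with overlapping groups. CCNH and CDK7, of the CDK-activating kinase, had log2 fold changes of -0.04 and -0.12, and CCNC and CDK8, of the mediator kinase module, had 0.01 and 0.21. CCNK, a partner of CDK12 and CDK13, had 24.8 and 22.6 FPKM against 24.7 and 29.0 FPKM (log2 difference 0.17). Its exons share 4893 bases with CCDC85C on the opposite strand, which had 12.7 to 19.4 FPKM.

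The remaining 16 cyclins and kinases have varied or little known roles, 13 of them were tested, and 0 passed the criterion by limma, with 1 at an unadjusted p under 0.05. CCNG1, a p53 target, had 156 and 159 FPKM in ECsXAV and 129 and 118 FPKM in CPC (log2 difference -0.35, standard error 0.11, limma adjusted p = 0.206), and the groups did not overlap. CCNG2, which is linked to cell cycle arrest, had 4.67 and 4.99 FPKM against 4.66 and 6.47 FPKM with overlapping groups. CDK14 had 15.2 and 11.4 FPKM against 10.6 and 8.94 FPKM, and CCNJL had 6.28 and 6.02 FPKM against 4.98 and 4.89 FPKM, with log2 fold changes of -0.40 and -0.27. In the other direction, CDK18 had 16.9 and 20.2 FPKM against 21.0 and 24.9 FPKM, and CDK20 had 3.96 and 3.99 FPKM against 5.19 and 3.97 FPKM, with log2 differences of 0.29 and 0.16. CDK5, known for its work in neurons, had a log2 fold change of -0.07. CCNI2, CCNO and CDK15 were under the filter, with at most 0.184 FPKM in any library. CCNO stood for reads in the ratio of 5, 1, 2 and 3 and CDK15 in the ratio of 3, 0, 2 and 0, in the order ECsXAV 1, ECsXAV 2, CPC 1 and CPC 2.

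By mean level over the 4 libraries, the most abundant members were CCNI at 144 FPKM, CCNG1 at 140 FPKM and CDK16 at 84.2 FPKM. CDK4 followed as the 5th at 34.3 FPKM, CDKN1B as the 6th at 29.6 FPKM and CCND2 as the 7th at 28.3 FPKM. CCNI and CCNG1 did not differ from each other beyond their spread over libraries. CDK1 had a mean of 7.51 FPKM and CCNB2 one of 5.76 FPKM.

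The transcript table divides the FPKM of a gene among its RefSeq transcripts, and 24 of the tested members have 2 or more. The transcript with the highest FPKM was the same in all 4 libraries for 15 of them, differed between replicates of a group for 7, and was shared within each group but different between the groups for 2, PKMYT1 and CCNYL1, beside 2.96% of all tested genes with 2 or more transcripts. In PKMYT1, NM_004203 took 67.2% and 78.4% of the FPKM in the ECsXAV replicates, and NM_182687 took 99.9% and 99.3% in the CPC replicates. In CCNYL1, NM_001142300 took 64.9% and 76.7% in ECsXAV, and NM_152523 took nearly all of it in CPC replicate 1 and 69.7% in CPC replicate 2. CCND3 divided in a like manner although its leading transcript differed within ECsXAV. NM_001136017 had 0.399 and 0.538 FPKM in ECsXAV and 2.92 and 3.77 FPKM in CPC, against the direction of the gene as a whole, while NM_001136125 had 3.19 and 3.33 FPKM in ECsXAV and at most 0.0162 FPKM in CPC. In CDK1 the replicates disagreed, since NM_001786 took 89.3% in CPC replicate 1 and 28.5% in CPC replicate 2, where NM_033379 took 62.3%. The totals of CDK1 in the same 2 libraries were 3.81 and 3.49 FPKM. The split among transcripts was not tested.

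**Figure D4:**
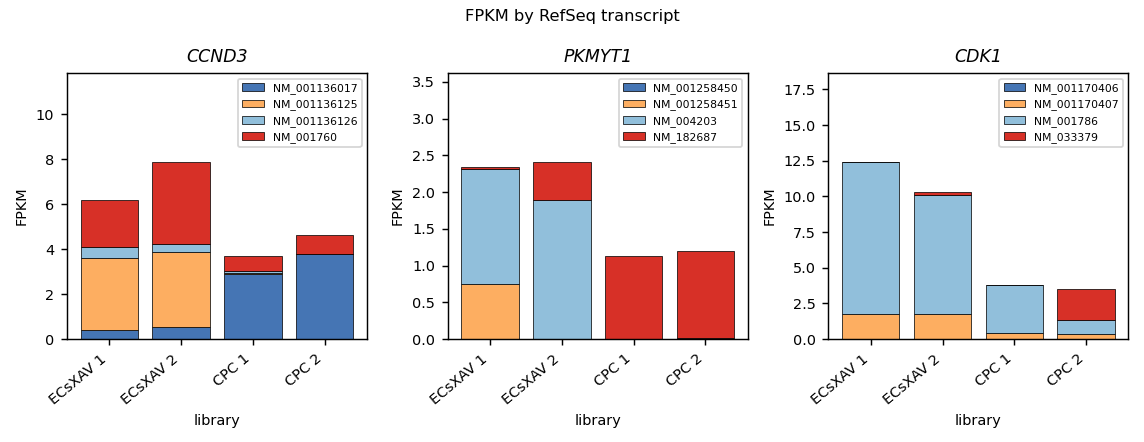
FPKM of each RefSeq transcript of CCND3, PKMYT1 and CDK1, stacked per library. In CCND3 NM_001136017 has 0.399 and 0.538 FPKM in ECsXAV and 2.92 and 3.77 FPKM in CPC, in PKMYT1 NM_182687 takes 99.9% and 99.3% in CPC, and in CDK1 the CPC replicates differ from each other, with 89.3% and 28.5% for NM_001786.

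Beside the members, 42 other regulators of the cell cycle were listed, of which 38 were tested and 4 passed the criterion, all higher in ECsXAV, beside 1.44% of all tested genes. These were CDC20, the activator of the anaphase-promoting complex that marks cyclin B for destruction, the mitotic kinases AURKB and PLK1, and MKI67, the gene of the Ki67 antigen of cycling cells. CDC20 had 7.21 and 6.80 FPKM in ECsXAV and 1.59 and 2.35 FPKM in CPC (log2 difference -1.44, limma adjusted p = 0.0301). AURKB had 5.09 and 3.79 FPKM against 1.26 and 1.38 FPKM, PLK1 had 8.82 and 7.42 FPKM against 2.62 and 3.57 FPKM, and MKI67 had 3.33 and 2.69 FPKM against 1.004 and 0.99 FPKM, with log2 differences of -1.22, -1.16 and -1.003. Their limma adjusted p were 0.0415, 0.0451 and 0.0483. Scaling by the median of ratios gave MKI67 a log2 difference of -0.998, short of 2-fold, and so took its call away. The median of the list was -0.11, and 17 of its tested genes were higher in both ECsXAV libraries and 6 in both CPC libraries, beside 25.4% and 24.4% of all tested genes. Quantile normalization left 1 of these calls, that of CDC20, and without the filter on low FPKM 0 of the regulators passed by limma, with 17 at an unadjusted p under 0.05. Leaving out any 1 library left 0 of them past the criterion by limma, with 9 to 13 at an unadjusted p under 0.05.

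Among these regulators, the 8 tested E2F and DP factors had log2 fold changes from -0.07 to 0.24, 0 passed by limma with 0 at an unadjusted p under 0.05, and all 8 had 95% confidence intervals within 2-fold. The factors E2F2 and E2F7, under the filter, were higher in both ECsXAV libraries. E2F2 had 0.145 and 0.126 FPKM in ECsXAV and 0.0313 and 0.0227 FPKM in CPC, and E2F7 had 0.286 and 0.228 FPKM against 0.0752 and 0.143 FPKM. E2F1, an activator of S phase genes, had 2.93 and 2.20 FPKM in ECsXAV and 3.21 and 2.18 FPKM in CPC. FOXM1, a transcription factor of the mitotic genes, had 4.29 and 3.14 FPKM against 1.16 and 1.61 FPKM (log2 difference -0.98, limma adjusted p = 0.0795), and MYBL2, a partner of the MuvB complex, had 2.45 and 2.05 FPKM against 0.787 and 0.97 FPKM (log2 difference -0.79, limma adjusted p = 0.0822). E2F1, E2F2, E2F7, FOXM1 and MYBL2 are outside the rule for named genes and were chosen after their values were seen.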

How the data were processed

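Sample labels gave the groups and replicate numbers, and labels and methods the doses. Deposited values are FPKM that the authors computed with Cufflinks on hg19 and UCSC gene annotations from poly-A libraries. The submitters' processing notes also name TopHat version 1.3.3. Total depth is unknown, and the methods describe uniquely aligned, strand-specific counts from Gsnap for the study's own test, while the handling of strand and of reads with several alignments in the FPKM is not given in the sources used here. The study's count test could not be repeated on FPKM. Both tables give all 4 libraries, and each member had 1 row in the gene table. The test on log2(FPKM + 1) was that of limma (version 3.58.1, R 4.3.3), its variance prior following the mean level, and p was adjusted by Benjamini-Hochberg over all tested genes. The steps were tested on simulated data. Figures were drawn with matplotlib 3.10.9 in Python 3.11.15, and tables made with NumPy 2.4.6 and with pandas 2.3.3. Relative depth is the modal ratio of FPKM between 0.005 and 0.1. Coordinates and exon overlaps came from GENCODE lifted to GRCh37, and promoter windows from RefSeq. Members, lists and tests were chosen with earlier results of these data known. Genes named with values are the members past the criterion, a list of core members covering each role, the 3 largest changes in each direction among the other members, and other regulators past the criterion, with MKI67; further genes are named as counts or groups of 5 or fewer. Alternatives were another pseudocount, no or a stricter filter, scaling by quantiles or by the median of ratios, a prior without trend, a block for the replicate number, gene loci summed, transcripts summed per gene, the short RNA genes left out along with genes at 0 in one replicate beside at least 5 FPKM in the other, and each library left out in turn, where the lone library of a group is assumed to vary like the others.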

Additional observations from a re-analysis of the deposited data

How the results depend on the processing

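Of 409 values of named genes under settings that kept all libraries, 387 kept their direction and their side of the criterion. Of the rest, 18 lost a call, 3 gained one and 1 changed direction. Most of the 38 named genes tested had not passed in the main test and had no call to lose. The 18 lost calls all fell on the 4 members and 4 other regulators that had passed. Summing loci or transcripts gave nearly the same values as the main test. Without a filter on low FPKM, 0 members, 0 other regulators and 20 of all genes passed by limma, with 14 members and 17 other regulators at an unadjusted p under 0.05. With a mean FPKM of at least 5, 152 of all genes passed, against 266 with the main filter, and 0 of 22 other regulators by limma (5 at an unadjusted p under 0.05). PLK1 was among the 22 (limma adjusted p = 0.0746), while CDC20, AURKB and MKI67 were under this filter and not tested. Quantile normalization left 1 other regulator past the criterion, and under it the change of CDKN2D was 0.0102, against -0.00822 without. CCNA2 passed with a pseudocount of 0.1, with short RNA genes and genes at 0 beside at least 5 FPKM left out, and with the latter and the replicate block together, a setting chosen after seeing the data that left 5 members past the criterion. The cause of the other changes was not tested.

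Leaving out 1 library at a time left 0 to 0 members, 0 to 0 other regulators and 50 to 118 of all genes past the criterion by limma, and it leaves 1 group with a single library. It turned the direction of CDK4 (-0.16 to 0.0605), CDK6 (-0.0906 to 0.36), CDK2 (-0.14 to 0.12), CDKN2D (-0.0546 to 0.0382), RB1 (-0.17 to 0.0492), RBL2 (-0.0591 to 0.18), CCNC (-0.20 to 0.22), CCNH (-0.13 to 0.0542), CCNT1 (-0.21 to 0.0849), CCNG2 (-0.0432 to 0.36) and CDK20 (-0.00148 to 0.32).

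With the replicate number as a block, 3 members (CDK1, CCNB1 and CCND1), 0 other regulators and 176 of all genes passed by limma, with 15 members and 13 other regulators at an unadjusted p under 0.05, and the adjusted p of CCNB2 was 0.0541. The numbers are shared by the labels only. Within each group the difference of replicate 1 from replicate 2 was taken, and across genes the 2 sets of differences had a rank correlation of 0.356 and a Pearson's r of 0.0349. Without short RNA genes and genes at 0 beside at least 5 FPKM these were 0.378 and 0.303. Genes are not independent replicates.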
